A study of Homo sapiens with 105 samples.

Results

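The 41 genes described here are known targets and transducers of type I interferon, taken by gene symbol from the 26330 symbols of each of 5 deposited RNA sequencing tables. A gene was used in a table where its mean normalized count, the average over the libraries of both groups after division by library size factors, was at least 10. That held for 28 of the 41 genes in all 5 tables. The study sequenced RNA from 2 human granulosa cell lines, granulosa cells being the ovarian cells that surround the oocyte. HGrC1, a granulosa cell line, was transduced with 1 of 3 vectors: the empty vector control (EV), wildtype FOXL2 (WT), or the FOXL2 mutant C134W, which is the change found in adult granulosa cell tumors. KGN is a granulosa cell tumor line that is heterozygous for C134W and received no FOXL2 vector. Each was sequenced without stimulation and after stimulation with TGF. No source used here states which form of TGF, its dose or its time. The labels list 3 samples in each of the 6 HGrC1 groups, 4 of KGN without TGF and 5 of KGN with TGF, together 27 of 105 samples. The sample titles place the RNA samples of HGrC1 and those of KGN under different experiment numbers. The other 78 samples were not analysed here. Nothing in the labels says that samples of 1 group are separate cultures, and the p-values therefore measure a spread that may be technical.

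Type I interferons are secreted proteins that bind a receptor of IFNAR1 and IFNAR2, which activates the kinases JAK1 and TYK2. These phosphorylate STAT2, which joins IRF9 in a complex that binds the interferon-stimulated response element (ISRE) in the promoters of target genes. The targets block viral RNA, viral entry and viral protein synthesis, and many cells keep some of them at a basal level without infection.

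The ISRE is shown for some of the genes whose changes are described in the next paragraphs. The genes were chosen as known targets and transducers of this pathway, and the ISRE is the element it acts through. Its share among them is therefore not independent of that choice. A core of GAAA, any 2 bases and GAAA again, on either strand, was found in 20 of the 32 members that have a RefSeq promoter (GRCh38.p14, 250 bases before and 50 bases from the start site on), which is 62.5%. Among all 27305 promoters of the same length the share was 3.65%. No core was found in 12 of the 32, among them IRF1, STAT2, XAF1, DDX58, IRF9, PARP9, SAMD9L and HERC6. TRIM22 was not among the 32. In the 30-base windows, read 5′ to 3′ on the strand of the gene, capitals mark the first core. The windows of HERC5, IFIH1 and BST2 hold a second core that overlaps the first and is left partly in lower case. A core on the opposite strand begins and ends with TTTC.
IFIT1: ctagctttagTTTCACTTTCccctttcggt
IFIT3: agccgttaggTTTCATTTTCctcctcccaa
IFITM1: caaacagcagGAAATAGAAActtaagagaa
OAS3: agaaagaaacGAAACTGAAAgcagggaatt
HERC5: ctcattacagTTTCCTTTTCcttttcgatt
IFIH1: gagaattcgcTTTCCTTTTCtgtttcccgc
PARP14: tccaggaaacGAAAGCGAAAgagtcaaagt
SAMD9: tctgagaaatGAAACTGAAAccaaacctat
BST2: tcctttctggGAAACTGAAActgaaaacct
The first base of the core lay 116 bases before the start site in IFIT1, 156 in IFIT3, 40 in IFITM1, 143 in OAS3 and 29 in PARP14. The windows lie at chr10:89392497-89392526 for IFIT1, chr10:89327831-89327860 for IFIT3 and chr11:313990-314019 for IFITM1, all on the plus strand. The other motifs searched on both strands were TTCNNNGAA, the site of activated STAT dimers, in 9 members (28.1%, against 7.88% of all promoters), GTAAACA, a forkhead site, in 2 (6.25% against 3.41%), and GTCTG, a SMAD site, in 14 (43.8% against 45.0%). A match is a run of letters and not a measured site.

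The upstream 250 bases are shown for 3 members with a core that were called in 3 or 4 of the 5 tables, with every core in capitals. ISG15 (chr1:1013247-1013496, plus strand) encodes a ubiquitin-like protein, EPSTI1 (chr13:42992242-42992491, minus strand) an interferon-induced protein of stromal and epithelial cells, and IFITM3 (chr11:320861-321110, minus strand) a membrane protein that hinders viral entry.
ISG15: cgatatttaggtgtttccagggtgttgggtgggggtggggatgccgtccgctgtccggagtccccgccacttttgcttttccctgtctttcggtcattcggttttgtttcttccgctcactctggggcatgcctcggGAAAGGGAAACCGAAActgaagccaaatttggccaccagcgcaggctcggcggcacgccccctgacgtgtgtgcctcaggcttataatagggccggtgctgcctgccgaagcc
EPSTI1: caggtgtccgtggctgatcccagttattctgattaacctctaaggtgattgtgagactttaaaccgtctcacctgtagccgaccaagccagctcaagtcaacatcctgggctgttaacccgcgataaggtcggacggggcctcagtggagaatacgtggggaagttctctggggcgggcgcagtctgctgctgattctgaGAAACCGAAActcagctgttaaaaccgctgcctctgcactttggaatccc
IFITM3: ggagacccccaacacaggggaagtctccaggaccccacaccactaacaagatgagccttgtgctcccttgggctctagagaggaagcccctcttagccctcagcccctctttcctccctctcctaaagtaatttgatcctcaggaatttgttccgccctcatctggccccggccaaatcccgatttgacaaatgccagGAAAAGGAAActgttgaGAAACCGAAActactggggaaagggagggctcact
ISG15 held 2 cores that overlap, at 113 and 107 bases before the start site, and IFITM3 held 2 at 52 and 35. EPSTI1 held 1 core at 50 bases before the start site.

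Whole-series facts that touch these genes are few. The spacing of low values gave 6 libraries in each HGrC1 table, at approximate depths of 5490000 to 19650000 reads. The KGN table gave 11, of which 5 had TGF and 6 did not, at 3590000 to 16540000 reads. The labels list 5 and 4 KGN samples, and which libraries correspond to them could not be told. FOXL2, the transduced gene, was higher in C134W than in EV, with log2 differences of 6.27 ± 0.20 (no TGF) and 6.16 ± 0.24 (TGF) in the authors' deposited tables. Against WT, FOXL2 was lower in C134W with TGF, by -0.27 ± 0.11 (DESeq2 adjusted p 0.0339, the authors' deposited table). Without TGF it was at -0.13 ± 0.06 against WT and did not pass (DESeq2 adjusted p 0.0902, the authors' deposited table). Of 13 granulosa markers, 8 or 9 reached a mean of 10 in each table, while FSHR and AMHR2 were below 10 in all of them. NR5A1 and NR5A2 reached 10 in KGN alone. Of 9 leukocyte markers, CD3E, LILRA4 and IL3RA were at 0 in every table. CD68 reached a mean of 10 in every table and was the only 1 to do so in KGN. CD14 reached 10 in each HGrC1 comparison except C134W against WT with TGF. It was lower in C134W than in EV, by -1.71 ± 0.39 with TGF and -1.03 ± 0.24 without, in the authors' deposited tables.

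In KGN cells most of the interferon genes fell with TGF. Of the 35 members with a mean of at least 10, 24 were lower with TGF, 1 was higher and 10 did not pass an adjusted p under 0.05 in the authors' deposited table (DESeq2 Wald test, Benjamini-Hochberg adjustment). Of all genes tested there, 46.8% were called, 23.5% as higher and 23.3% as lower. The median log2 fold change of the members was -0.61, against 0.00 over all genes, and 9 members were lower by at least 1 on the log2 scale. In bulk RNA, fewer cells expressing a gene and less RNA per cell cannot be told apart.

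**Figure D1:**
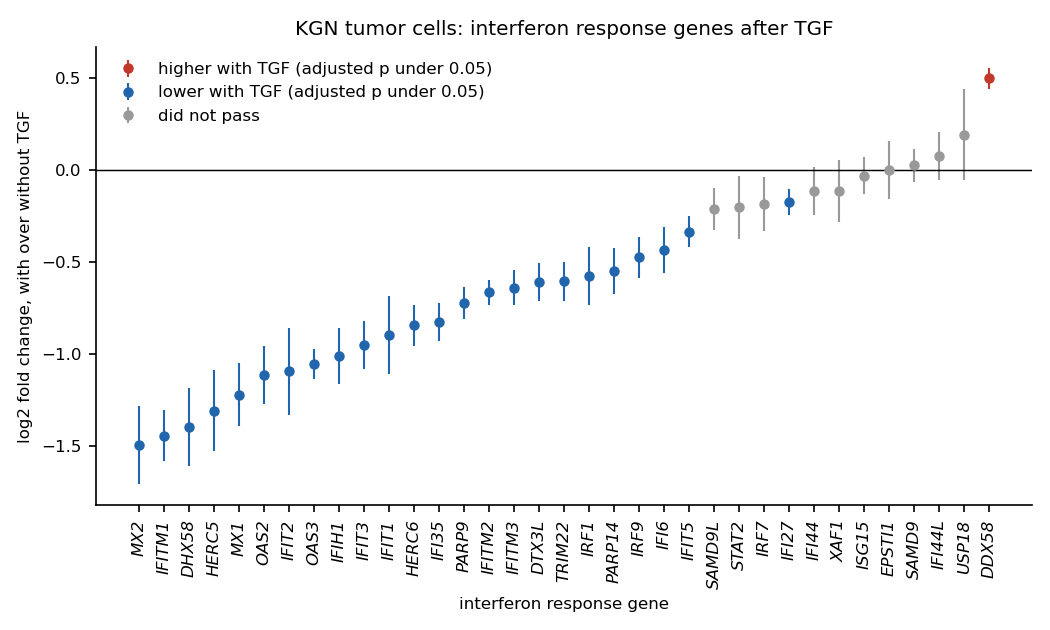
Log2 fold change with over without TGF in KGN cells for the 35 interferon genes with a mean normalized count of at least 10, sorted by value, from the authors' deposited table. Bars are the deposited standard errors and colors give the call; 24 genes lie below 0 and pass, and DDX58 is the 1 gene above 0 that passes.

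The IFIT proteins bind foreign RNA ends and block translation, and all 4 members fell. IFIT2 changed by -1.10 ± 0.24 (SE) on the log2 scale in the authors' deposited table, a 2.14-fold fall with a DESeq2 adjusted p of 2.10e-05. IFIT3 changed by -0.95 ± 0.13 (adjusted p 3.85e-12) and IFIT1 by -0.90 ± 0.21 (adjusted p 1.11e-04) in the authors' deposited table of DESeq2 results. The implied levels, which carry no error, went from 272 to 138 normalized reads for IFIT3 and from 43.5 to 22.2 for IFIT1. IFIT5 fell least of the family, by 0.33 on the log2 scale in the authors' deposited table.

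The IFITM proteins sit in membranes and hinder the fusion of viruses with the cell, and all 3 fell. IFITM1 fell 2.72-fold, with a log2 change of -1.45 ± 0.14 and a DESeq2 adjusted p of 1.22e-24 in the authors' deposited table. IFITM2 changed by -0.67 ± 0.07 and IFITM3 by -0.64 ± 0.10 in the authors' deposited table. The 3 genes are neighbours on chromosome 11 and their coding sequences are close copies, so reads could be split between them and their separate values are uncertain.

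The OAS enzymes make the messenger that activates RNase L, and the MX GTPases trap viral nucleoproteins. OAS3 fell 2.08-fold, by -1.06 ± 0.08 on the log2 scale (DESeq2 adjusted p 8.87e-38, the authors' deposited table), and its implied level went from 604 to 288 normalized reads. OAS2 changed by -1.11 ± 0.16 with a DESeq2 adjusted p of 2.16e-11 in the authors' deposited table. MX2 had the largest fall of the members, 2.82-fold, at -1.50 ± 0.21 (DESeq2 adjusted p 1.96e-11, the authors' deposited table), and MX1 changed by -1.22 ± 0.17. All 4 genes passed and all moved the same way.

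The ISG15 system did not move as a block. HERC5, the main ligase that attaches ISG15 to proteins, fell 2.48-fold and its relative HERC6 1.80-fold in the authors' deposited table (DESeq2 adjusted p 2.07e-08 and 6.49e-13). ISG15 itself was at -0.03 ± 0.10 and USP18, which removes ISG15 and dampens the receptor, at 0.19 ± 0.25, and neither passed in the authors' deposited table. The implied ISG15 level was 214 normalized reads without TGF and 210 with TGF.

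The RNA sensors split. IFIH1 (MDA5), the sensor of long double-stranded RNA, fell 2.02-fold and DHX58 (LGP2), its regulator, 2.64-fold in the authors' deposited table (DESeq2 adjusted p 4.13e-10 and 3.91e-10). DDX58 (RIG-I), the sensor of short RNA with a 5′ triphosphate, was the 1 member that rose, by 0.50 ± 0.06 on the log2 scale (1.41-fold, DESeq2 adjusted p 6.61e-17, the authors' deposited table). Its implied level went from 449 to 637 normalized reads.

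Among the transcription factors of the pathway, IRF1 changed by -0.58 ± 0.16 and IRF9, the DNA-binding partner of STAT2, by -0.47 ± 0.11 in the authors' deposited table (DESeq2 adjusted p 0.00101 and 1.02e-04). STAT2, at -0.20 ± 0.17, and IRF7, which amplifies interferon production, at -0.19 ± 0.15, did not pass in the authors' deposited table. PARP9, PARP14 and DTX3L, ADP-ribosylation and ubiquitin enzymes, all fell, by 0.72, 0.55 and 0.61 on the log2 scale in the authors' deposited table. PARP9 and DTX3L overlap on chromosome 3, and where reads were counted without strand they cannot be told apart there.

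Of the remaining members, IFI35 fell 1.77-fold, TRIM22 1.52-fold, IFI6 1.35-fold and IFI27 1.13-fold in the authors' deposited table. SAMD9, SAMD9L, IFI44, IFI44L, XAF1 and EPSTI1 did not pass, with log2 values from -0.21 to 0.08 in the authors' deposited table. BST2 (tetherin) had a mean of 7.22 in KGN and was not used there, while its mean was 1328 to 1495 normalized counts in the HGrC1 tables. OAS1, OASL, RSAD2, CMPK2 and ISG20 were below 10 in every table. IFITM1, OAS2, MX2, IFI44 and IFI44L reached 10 in the KGN table alone.

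Of 18 members of this table with a core in the promoter, 13 were lower with TGF and none was higher; of 9 without, 5 were lower and 1 was higher. The medians of the authors' deposited log2 values were -0.58 and -0.47. Among genes that are no members, 30.6% of 258 with a core and 23.2% of 9138 without were lower in the authors' deposited table. In HGrC1, C134W against WT, the medians for members with a core and without one were -0.09 and 0.17 after TGF. In unstimulated cells they were 0.05 and 0.11. Against EV the same medians were -0.08 and -0.07 after TGF, and 0.14 and 0.25 in unstimulated cells, all in the authors' deposited tables. The difference between members with and without a core was not tested in any comparison.

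Other genes of the pathway were counted from 7 lists. Of all genes tested in KGN, 23.5% were higher with TGF and 23.3% lower. None of the 12 interferon ligands listed reached a mean of 10 in any table, and the highest mean was 2.47. In KGN, 5 of 10 receptor and JAK-STAT genes were lower and 2 higher with TGF, and JAK2, at -1.07 ± 0.12, was among the lower in the authors' deposited table. Of 16 nucleic acid sensing genes 8 were lower and none higher, with TMEM173, which encodes STING, at -1.11 ± 0.10 in the authors' deposited table. Antigen presentation genes were lower in 15 of 18 and higher in none, and PSMB10, an immunoproteasome subunit, was at -1.04 ± 0.11 in the authors' deposited table. Of 13 negative regulators 9 were lower and 1 higher, and SOCS3, an inhibitor of JAK kinases, was at -1.08 ± 0.11 in the authors' deposited table. UBA7, the enzyme that activates ISG15 and no inhibitor, was counted in this list in every comparison. It was at -1.17 ± 0.18 in KGN in the authors' deposited table. Genes known mainly for gamma interferon were lower in 8 of 11 and higher in 3. Among those with a mean of at least 100, GBP4 was at -2.43 ± 0.12 and CD274 (PD-L1) at 1.18 ± 0.07 in the authors' deposited table. CIITA, the switch of MHC class II genes, lay lower still at -3.75 ± 0.33, with a mean of 26.2, in the authors' deposited table; it is outside the naming rule and was chosen after its value was seen. Of 43 other interferon-stimulated genes, 25 were lower and 3 higher. Of the leukocyte and endothelial markers, CD68 (-1.06 ± 0.11) and PECAM1 (-2.58 ± 0.32) also fell with TGF in the authors' deposited table; the other leukocyte markers had means under 10, and their part in the result was not tested.

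In HGrC1 without TGF, C134W differed from WT in few interferon genes. Of 30 members, 5 were higher in C134W, 1 was lower and 24 did not pass in the authors' deposited table (DESeq2), where 22.4% of all genes were called (10.9% higher, 11.5% lower). The members' share, 20.0%, was near that background. With TGF, 7 of 29 were higher and 2 lower in the authors' deposited table, against 38.3% of all genes (19% higher, 19.3% lower). The median log2 value of the members was 0.07 in both conditions, against 0.00 over all genes. The deposited fold changes against WT had been pulled toward 0 by a prior, of SD 0.307 without TGF and 0.589 with TGF. Their sizes are therefore not directly comparable between the 2 conditions.

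**Figure D2:**
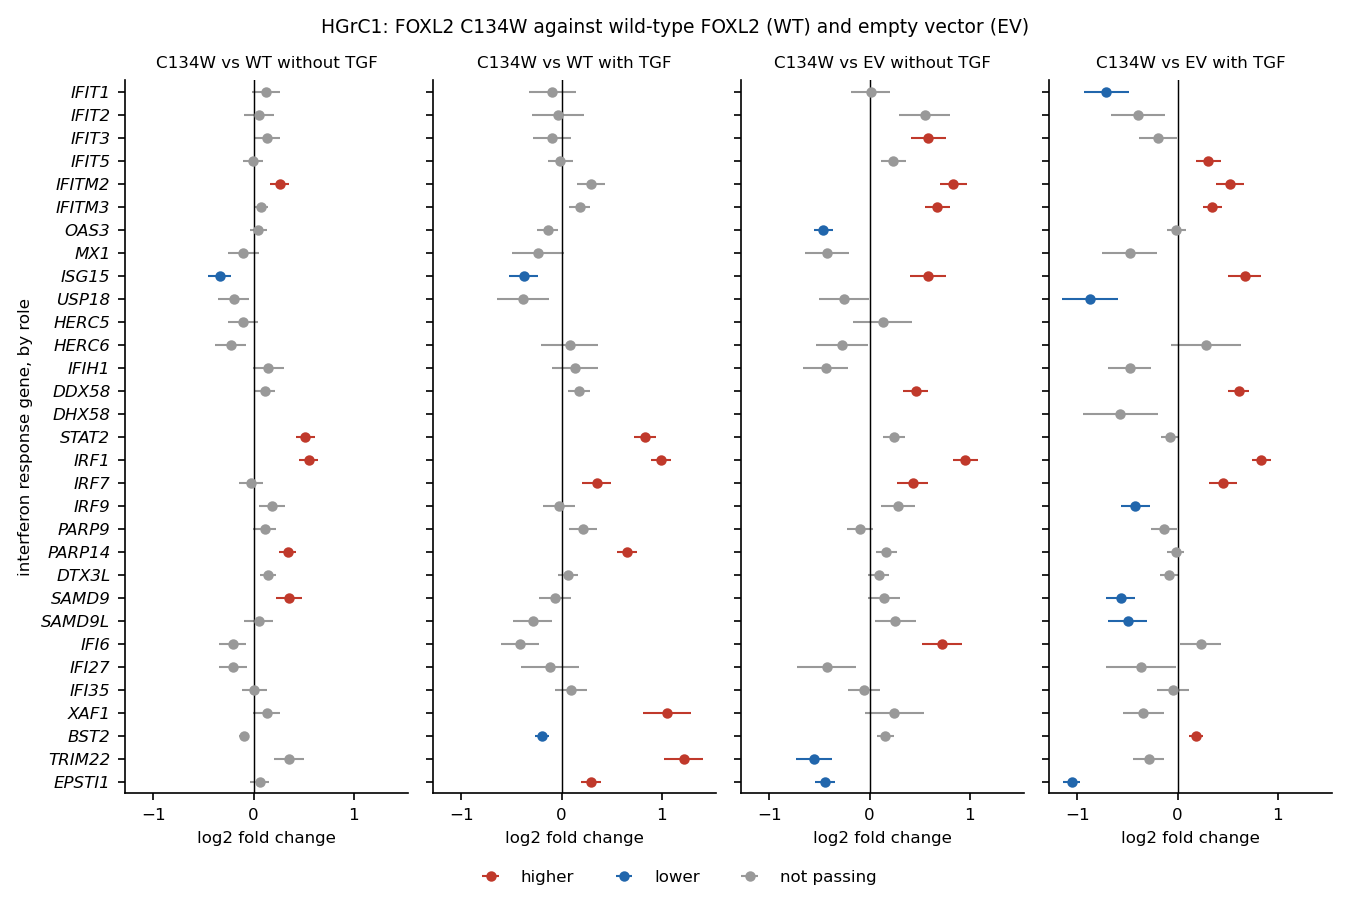
Log2 fold change of C134W over WT and over EV in HGrC1 cells, without and with TGF, for the interferon genes with a mean normalized count of at least 10, from the authors' deposited tables. Bars are the deposited standard errors; IRF1 is above 0 and passes in all 4 panels, and a missing point is a gene below a mean of 10 in that table.

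IRF1 was called in all 5 tables. The implied levels without TGF were 190 normalized reads in EV, 247 in WT and 379 in C134W, and with TGF 373, 328 and 670, on 1 scale set by the C134W levels. C134W was therefore the highest group in both conditions. The authors' deposited log2 difference between C134W and WT was 0.55 ± 0.10 without TGF and 0.99 ± 0.10 with TGF (DESeq2 adjusted p 2.81e-07 and 8.21e-21). Against EV it was 0.95 ± 0.13 and 0.84 ± 0.09 in the authors' deposited tables (DESeq2 adjusted p 7.99e-13 and 5.27e-19).

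STAT2 and PARP14 were lowest in WT. STAT2 levels with TGF were 521 in EV, 272 in WT and 495 in C134W, and without TGF 335, 267 and 399. C134W was higher than WT by 0.83 ± 0.11 with TGF and 0.52 ± 0.09 without (DESeq2 adjusted p 1.63e-13 and 9.94e-07, the authors' deposited tables). Against EV, STAT2 was at -0.07 ± 0.09 with TGF and 0.24 ± 0.11 without and passed in neither of the authors' deposited tables. PARP14 levels with TGF were 671 in EV, 416 in WT and 662 in C134W, and C134W was higher than WT by 0.65 ± 0.10 (DESeq2 adjusted p 9.05e-10, the authors' deposited table). WT against EV is in no deposited table, so that difference has no test.

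**Figure D3:**
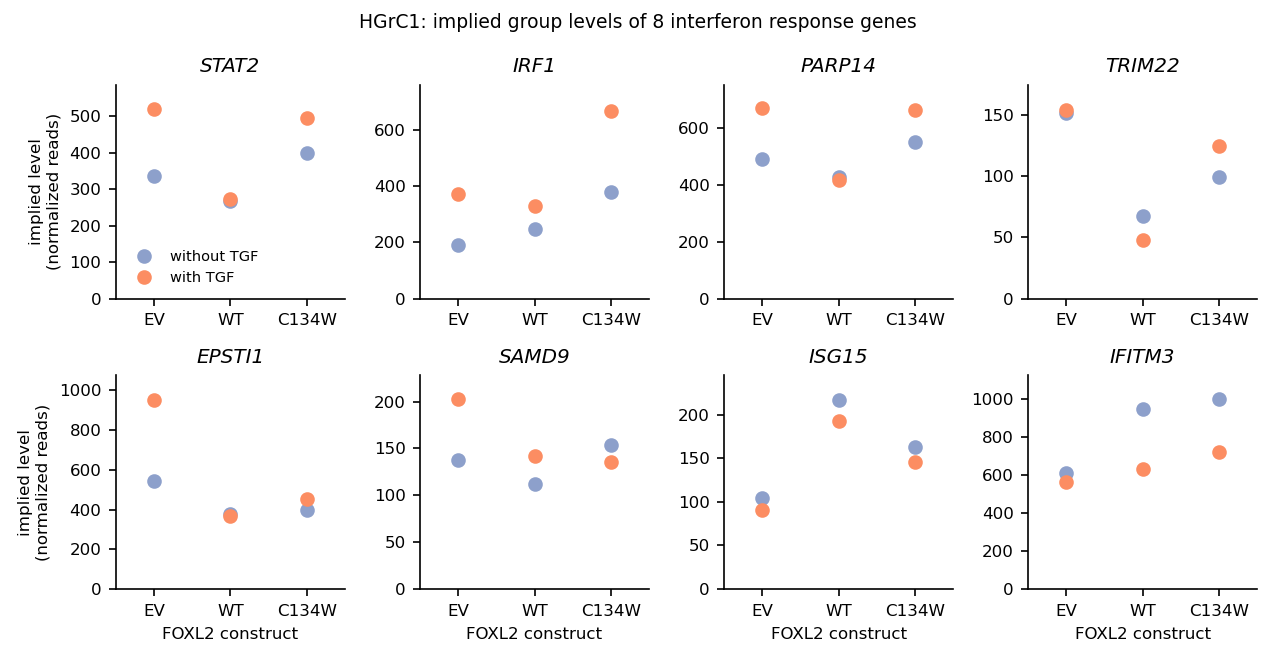
Implied level in normalized reads of 8 interferon genes in HGrC1 cells with EV, WT or C134W, without and with TGF, derived from the authors' deposited means and fold changes. Points have no error bar, since the tables hold no values per library; STAT2 and PARP14 are lowest in WT in both conditions, and EPSTI1 is highest in EV with TGF.

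TRIM22, an antiviral ubiquitin ligase, and XAF1, a cell death factor, were higher in C134W than in WT with TGF. TRIM22 levels with TGF were 154 in EV, 47.5 in WT and 125 in C134W, and C134W was 2.32-fold higher than WT (log2 1.22 ± 0.19, DESeq2 adjusted p 5.22e-09, the authors' deposited table). Without TGF, TRIM22 was lower in C134W than in EV by -0.55 ± 0.18 (DESeq2 adjusted p 0.00865, the authors' deposited table). XAF1 levels with TGF were 82.1, 24.9 and 64.0, and C134W was 2.08-fold higher than WT (log2 1.05 ± 0.24, DESeq2 adjusted p 7.73e-05, the authors' deposited table). For both genes the implied level in C134W lay between WT and EV with TGF. Against EV with TGF, TRIM22 was at -0.29 and XAF1 at -0.34, and neither passed in the authors' deposited table.

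ISG15 was lower in C134W than in WT in both conditions, and BST2 with TGF. ISG15 levels were 104 in EV, 217 in WT and 162 in C134W without TGF, and 90.3, 193 and 146 with TGF. C134W was lower than WT by -0.34 ± 0.12 without TGF and -0.38 ± 0.14 with TGF, and higher than EV by 0.58 ± 0.18 and 0.67 ± 0.17 in the authors' deposited tables, and all 4 passed. ISG15 was thus between EV and WT in both conditions. BST2 was lower in C134W than in WT with TGF by -0.19 ± 0.07 and higher than in EV by 0.18 ± 0.07 in the authors' deposited tables. Without TGF, BST2 was at -0.10 ± 0.05 against WT and did not pass in the authors' deposited table.

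Against EV, which carries no FOXL2 vector insert, C134W was higher in 8 and lower in 6 of 30 members with TGF in the authors' deposited table (DESeq2), where 48.8% of all genes were called (25.6% higher, 23.1% lower). Without TGF, 8 of 30 were higher and 3 lower in the authors' deposited table, against 26.4% of all genes (14.1% higher, 12.4% lower). These comparisons share the C134W libraries with those against WT. The member medians were -0.11 with TGF and 0.16 without.

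EPSTI1 gave the largest difference from EV. Its levels with TGF were 949 in EV, 367 in WT and 453 in C134W, and without TGF 545, 380 and 397. C134W was 2.08-fold lower than EV with TGF (log2 -1.06 ± 0.08, DESeq2 adjusted p 2.17e-36) and 1.36-fold lower without (-0.44 ± 0.10, adjusted p 1.32e-04) in the authors' deposited tables. SAMD9 and SAMD9L, neighbouring growth-limiting antiviral genes on chromosome 7, were lower than in EV with TGF by -0.57 ± 0.15 and -0.50 ± 0.19 in the authors' deposited table. USP18 (-0.88 ± 0.28), IFIT1 (-0.71 ± 0.22) and IRF9 (-0.42 ± 0.14) were the other members lower than in EV with TGF in the authors' deposited table.

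Higher than in EV in both conditions were IFITM2, IFITM3, ISG15, DDX58, IRF1 and IRF7. IFITM3 levels without TGF were 612 in EV, 946 in WT and 1000 in C134W, and the difference from EV was 0.68 ± 0.12 (DESeq2 adjusted p 8.31e-07, the authors' deposited table). IFITM2 was higher by 0.83 ± 0.13 without TGF and 0.52 ± 0.14 with TGF in the authors' deposited tables, with the same limit on close copies. DDX58 was higher by 0.46 ± 0.13 without TGF and 0.61 ± 0.11 with TGF in the authors' deposited tables. Without TGF, IFI6 (0.72 ± 0.20) and IFIT3 (0.59 ± 0.18) were also higher and OAS3 (-0.46 ± 0.10) lower in the authors' deposited table.

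The pathway lists differed in direction against EV with TGF, where 25.6% of all genes were higher and 23.1% lower. Gamma interferon genes were higher in 5 of 7 and lower in none, among them GBP2 (1.86 ± 0.14), CD274 (1.60 ± 0.12) and GBP1 (1.18 ± 0.11) in the authors' deposited table. Antigen presentation genes were higher in 8 of 18 and lower in 2, and HLA-B was at 0.81 ± 0.06 in the authors' deposited table. Other interferon-stimulated genes were higher in 15 of 41 and lower in 5. Receptor and JAK-STAT genes were higher in 2 of 11 and lower in 5, nucleic acid sensing genes higher in 3 of 16 and lower in 5, and negative regulators higher in 4 of 13 and lower in 4. Against WT with TGF, where 19% of all genes were higher and 19.3% lower, 14 of 41 other interferon-stimulated genes were higher and 3 lower. There the gamma interferon genes were higher in 3 of 8 and lower in 3, and antigen presentation genes higher in 5 of 18 and lower in 1. Receptor and JAK-STAT genes were higher in 2 of 11 and lower in 1, nucleic acid sensing genes higher in 2 of 16 and lower in 3, and negative regulators higher in 3 of 13 and lower in 1. Without TGF, against EV, 14.1% of all genes were higher and 12.4% lower. Of the gamma interferon genes 4 of 9 were higher and 1 lower, and of antigen presentation genes 6 of 18 were higher and 2 lower. Of other interferon-stimulated genes 10 of 43 were higher and 2 lower. Receptor and JAK-STAT genes were then higher in 2 of 11 and lower in 2, nucleic acid sensing genes higher in 1 of 16 and lower in none, and negative regulators higher in 7 of 14 and lower in none. Without TGF, against WT, 10.9% of all genes were higher and 11.5% lower. Gamma interferon genes were higher in 1 of 8 and lower in 4, and antigen presentation genes higher in 2 of 18 and lower in 1. Other interferon-stimulated genes were higher in 8 of 43 and lower in 3. Receptor and JAK-STAT genes were higher in none of 11 and lower in 1, nucleic acid sensing genes higher in 2 of 16 and lower in 1, and negative regulators higher in 2 of 14 and lower in none.

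Whether TGF changed the difference between C134W and its control was tested by a two-sided z test on the authors' deposited values with Benjamini-Hochberg adjustment over all genes. Against WT, the difference was larger with TGF for 3 of 29 members, IRF1, XAF1 and TRIM22, where 13.1% of all genes passed (5.99% higher with TGF, 7.13% lower). With the prior on the fold changes undone, none of 26 members passed the z test and 4 had an unadjusted p under 0.05. The share of all genes under that setting was not counted. XAF1 was left out there, since its mean against WT without TGF was under 34.5, the limit for undoing the prior. Against EV, 6 of 29 passed, OAS3 as higher with TGF and IFIT3, IRF9, SAMD9, SAMD9L and EPSTI1 as lower, where 19.2% of all genes passed (9.78% higher, 9.4% lower).

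The change with TGF within each HGrC1 group is in no deposited table and was derived from the implied levels, centred on the median ratio of all genes in that group, as a description with no error. Over the 25 members with a value in all 4 kinds of cells, the median log2 change was 0.18 in EV, -0.18 in WT, -0.22 in C134W and -0.60 in KGN. It was negative for 9, 18, 16 and 21 of the 25. For IRF1 the sign differed between the lines: its implied level went from 190 to 373 normalized reads in EV and from 379 to 670 in C134W, and went from 650 to 429 in KGN. HGrC1 and KGN differ in line, vector, number of libraries and the experiment number in their titles, and these cannot be told apart.

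**Figure D4:**
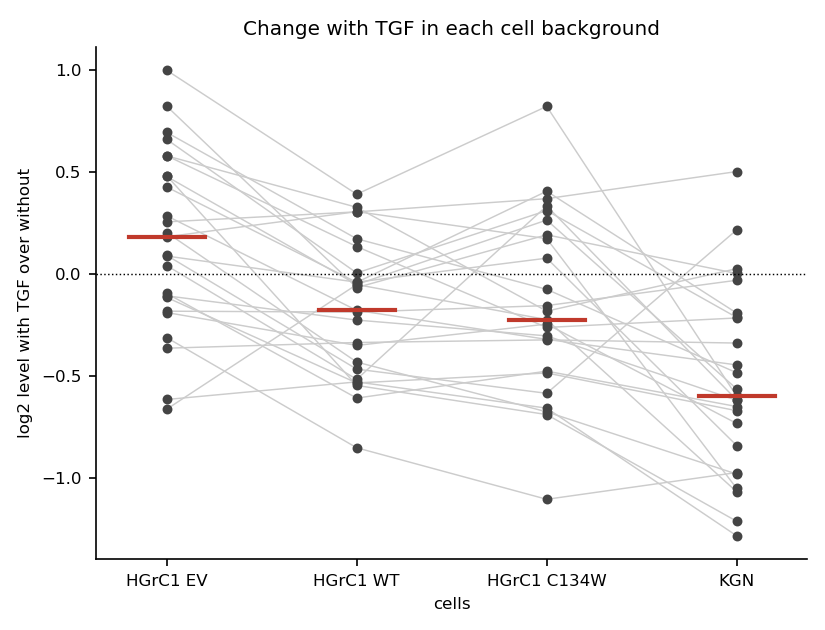
Log2 ratio of the implied level with TGF over without TGF for 25 interferon genes in HGrC1 cells with EV, WT or C134W and in KGN cells, each line joining 1 gene and each red bar a median. The medians are 0.18, -0.18, -0.22 and -0.60, and no error is available for the HGrC1 points.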

How the data were processed

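RNA was sequenced from HGrC1 and KGN cells; groups were taken from sample titles, and the mutant in the tables' names was read as C134W. DESeq2, HTSeq 0.6.1, Bowtie2, Trimmomatic 0.36.0 and the build hg38 are named, per the submitters' processing notes, without their order. No source used here states their settings. The authors deposited, per gene and comparison, a mean normalized count (a signal, counts divided by size factors), a log2 fold change, its standard error on the log2 scale, a Wald statistic (a score), and a p-value with its adjusted p-value. The tables hold no values per library, so the authors' DESeq2 Wald test was used as deposited and "±" is the deposited standard error.

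The members and lists were chosen with earlier results of these data known. A mean of at least 10 and an adjusted p under 0.05 defined a call. Full values were given for called members with a log2 change of at least 0.5 in size, members whose difference changed with TGF, and the extremes of each table; list genes named were called, had a mean of at least 100 and were among the 3 largest changes of their list. Not every gene that met this rule is reported here. Single-read spacing gave library numbers and approximate depths, whose counting error the deposited standard errors include. Standard errors at low means showed a normal prior on the fold changes, which was undone to obtain implied group levels. EV and WT were joined through the C134W level (genes with a mean of at least 100), and levels without TGF were multiplied by the median ratio of the C134W levels; that common scale was chosen after seeing the data and serves only to set levels side by side. The reported changes with TGF were centred on each group's own median ratio. Promoters are from RefSeq (GRCh38.p14); 40 members matched by symbol and 1, DDX58, by synonym. Python 3.11.15, numpy 2.4.6, pandas 2.3.3, scipy 1.17.1 and matplotlib 3.10.9 were used. The z test and the undoing of the prior were each run on simulated data. The simulated fold changes for the z test carried no prior, unlike the deposited ones, so that run does not cover the effect of the prior. Alternatives were a stricter adjusted p, other minimum means, centring, the prior undone and other bridge genes.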

Additional observations from a re-analysis of the deposited data

Results flagged for a closer look

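For 9 members the difference between C134W and its control changed between cells without and with TGF by the two-sided z test with Benjamini-Hochberg adjustment. They were 3 of 29 members against WT, where 13.1% of all genes passed, and 6 of 29 against EV, where 19.2% passed. Both shares lay near those of all genes. Against WT, the log2 difference with TGF minus that without was 0.44 ± 0.14 for IRF1 (adjusted p 0.0171), 0.92 ± 0.28 for XAF1 (adjusted p 0.00960) and 0.86 ± 0.24 for TRIM22 (adjusted p 0.00506). With the prior on the fold changes undone, IRF1 had an adjusted p of 0.0592 and TRIM22 of 0.0572, and neither kept its call. XAF1, with a mean under 34.5 against WT without TGF, was left out of that setting. Against EV it was 0.45 ± 0.14 for OAS3 (adjusted p 0.00808) and -0.61 ± 0.13 for EPSTI1 (adjusted p 4.49e-05). It was -0.79 ± 0.26 for IFIT3 (adjusted p 0.0161), -0.71 ± 0.22 for IRF9 (adjusted p 0.0108), -0.71 ± 0.22 for SAMD9 (adjusted p 0.00870) and -0.76 ± 0.28 for SAMD9L (adjusted p 0.0363). The causes were not tested.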

How the results depend on the processing

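At an adjusted p under 0.01, 5 members were called for C134W against WT with TGF and 3 without, and 3 had a difference from EV that changed with TGF. The shares of all genes at that threshold, and with the prior undone, were not counted. With the prior undone, 0 of 26 members had a difference from WT that changed with TGF by the z test (4 at an unadjusted p under 0.05). IRF1 was at 0.40 (adjusted p 0.0592) and TRIM22 at 0.84 (adjusted p 0.0572). XAF1, with a mean under 34.5 against WT without TGF, was left out. The prior against WT had an SD of 0.589 with TGF and 0.307 without. Its part in the loss of these calls was not tested. The other 46 main values and 154 values of single genes or levels kept their direction and side of the threshold, or moved by less than the limits set. Alternatives chosen after seeing the data were 5 and 4 KGN libraries, which moved implied KGN levels by a factor of 0.966 to 1.11, and centring all HGrC1 groups on the median ratio of the C134W levels, which gave median changes with TGF of 0.16 in EV, -0.16 in WT and -0.22 in C134W in place of 0.18, -0.18 and -0.22. No paired analysis was possible because the tables carry no columns per library, and for the same reason no library could be left out. Members with means near 10 have wide errors, so a difference that did not pass may lie below what this depth could detect.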
